A study of Mus musculus with 2 samples.

Results

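The Bcl2 family decides whether the outer mitochondrial membrane is opened in intrinsic apoptosis, and its transcripts were followed here through the cells of mouse pancreatic islets. The 10 members were taken by symbol from a table of 31053 genes: the anti-apoptotic Bcl2, Bcl2l1 (Bcl-xL), Bcl2l2 (Bcl-w) and Mcl1, the pore-forming Bax and Bak1, and the BH3-only Bad, Bid, Bbc3 (Puma) and Bcl2l11 (Bim). All 10 had counts in both libraries. Anti-apoptotic proteins hold the pore formers and the BH3-only proteins in check, while Bax and Bak1 assemble the pores through which cytochrome c leaves the mitochondrion. BH3-only proteins report damage, growth factor loss or death receptor signals to the other members. Much of this control acts on the proteins, through phosphorylation, cleavage and turnover, and is not seen in transcript counts.

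The islets came from C57BL/6J mice aged 2 weeks and were dissociated with trypsin. One droplet-based single cell library (10x Genomics, 3' ends) was made from wild-type (WT) mice and 1 from Npc1-/- littermates, each from a pool of 3 female mice according to the series design text. Npc1-/- mice lack the lysosomal cholesterol transporter NPC1 in every tissue, so a difference in one cell class need not arise in that class. The comparison of genotypes asks what loss of NPC1 changes in islet cells. With 1 library each, genotype cannot be told apart from the pool or its preparation.

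Each value counts captured molecules by their unique molecular identifiers (UMIs). Of 8569 WT and 7646 Npc1-/- barcodes, 4628 and 4269 were kept, with 94096566 and 94392651 UMIs. Cells were named by their leading hormone, which gave insulin cells (1833 in WT and 1826 in Npc1-/-), glucagon cells (1048 and 857), somatostatin cells (189 and 141) and PP cells led by Ppy and Pyy (411 and 442). Insulin cells with Ppy and Pyy under 1% of UMIs are called PP-low (1342 and 1005) and the others PP-high (491 and 821), and 154 WT and 162 Npc1-/- insulin cells lay between 0.8% and 1.2%. The remaining cells were endothelial (424 and 424), stellate (302 and 327) or macrophage (58 and 32) by 8 markers each. Unassigned cells numbered 363 and 220. None of the 8 markers was at 0 in its class, but they also set the classes, so this is no separate check. Among stellate cells, summed fibroblast markers reached 2255 CPM (WT) and 2525 CPM (Npc1-/-). Acinar markers summed to 65.5 CPM for WT endothelial cells but 1231 CPM for the Npc1-/- ones. The part of these transcripts in the values of both classes was not tested. Npc1 itself had 790 UMIs (8.40 CPM) in WT and 391 UMIs (4.14 CPM) in the Npc1-/- library, so its transcript was lower but still counted, and whether these 3' counts lie in the disrupted part of the gene is not given in the sources used here. Transcripts of the response to dissociation differed between the libraries: 58 of the WT and 0 of the Npc1-/- insulin cells gave them over 0.5% of their UMIs. They are immediate early and heat shock genes, and whether handling or genotype made this difference cannot be told apart. The libraries shared 12 barcodes.

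Levels are given as CPM, the UMIs of a gene per 1000000 UMIs of its class, with 95% exact Poisson intervals. Hormone transcripts took 57.8% of the UMIs in WT insulin cells but 2.25% in endothelial cells, which lowers every other CPM in hormone cells. Differences are therefore log2 ratios from which the ratio of the median gene has been subtracted. A member counts as past the fold when it differs from the median gene by at least 1.3 times, its 95% interval leaves out the median gene, and it has at least 5 CPM in either group. With 1 library per genotype there is no replicate check and no p-value, and all intervals cover counting error only. Counts of 3' ends do not depend on transcript length, but capture differs between genes, so shares of the family's UMIs are shares of what was captured.

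Bcl2 was low in insulin cells and higher in every other class. This gene, which shields cells from the mitochondrial pathway, was counted at 1.48 CPM (1.13 to 1.91, 61 UMIs) in WT PP-low insulin cells and at 2.33 CPM (1.82 to 2.93, 73 UMIs) in those of the Npc1-/- library. In PP-high insulin cells it stood at 2.71 CPM (37 UMIs) and 3.03 CPM (69 UMIs). The lowest level of any other class was 10.9 CPM.

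Glucagon cells held 34.3 CPM of Bcl2 (31.7 to 37.1, 634 UMIs) in WT and 28.5 CPM (26.1 to 31.2, 490 UMIs) in Npc1-/-. Somatostatin cells held 17.7 and 14.8 CPM, and PP cells 13.6 and 10.9 CPM. The 4 hormone classes were thus not alike, with insulin cells at the bottom of the order and glucagon cells at the top. Endothelial cells held 52.8 and 44.3 CPM, stellate cells 60.7 and 82.9 CPM, and macrophages 30.8 CPM on 22 UMIs and 13.1 CPM on 7 UMIs. From the lowest to the highest class Bcl2 spanned 40.9-fold in WT and 35.6-fold in Npc1-/-, and 17.3-fold and 15.3-fold when hormone genes were left out of the total. In WT the intervals of stellate and endothelial cells overlapped, as did those of each neighbouring pair in the order glucagon, macrophage, somatostatin and PP.

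Relative to the median gene, Bcl2 was higher in glucagon than in insulin cells by 3.70 on the log2 scale (3.40 to 4.03) in WT and by 2.99 (2.72 to 3.28) in Npc1-/-. Without likely doublets these values were 4.33 and 3.32. Likely doublets are here the barcodes with the highest doublet scores at the expected rate, 317 in WT and 261 in Npc1-/-. The scoring tool's own threshold marked only 65 and 40 barcodes. With all kept cells, the Bcl2 difference from insulin cells was 2.47 and 1.66 for PP cells, and 2.57 and 1.88 for somatostatin cells. After each cell was thinned to 5000 UMIs, 0.682% of 1319 WT PP-low insulin cells had a Bcl2 UMI against 14.8% of 1013 glucagon cells (23 and 35 shallower cells were left out), and without thinning 3.87% against 41.1%, at median depths of 31491 and 17144 UMIs. In the Npc1-/- library the thinned shares were 1.301% of 999 and 13.6% of 841 cells, and 6.07% and 40.02% without thinning. No class is known to lack Bcl2, so there was no class to set a background for these shares. Thinning kept the hormone genes, which took 58.9% of UMIs in WT PP-low insulin cells against 34.9% in WT glucagon cells. In Npc1-/- they took 57.9% and 34.7%, so the UMIs left for other genes still differed between the classes after thinning.

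The few Bcl2 molecules in insulin cells sat unevenly. When the barcodes with the highest doublet scores were removed at the expected rate, 147 WT insulin barcodes left and took 40 of the 98 Bcl2 UMIs with them. Those barcodes held 31652 CPM of Gcg, the glucagon transcript, and 8.25 CPM of Bcl2. The 1686 insulin cells that remained held 1.16 CPM of Bcl2 (0.882 to 1.501) and 523 CPM of Gcg. In Npc1-/- the 128 removed barcodes took 37 of 142 UMIs, and 2.10 CPM (1.72 to 2.54) remained with 860.5 CPM of Gcg. Relative to glucagon cells, WT PP-low insulin cells held 4.33% of the Bcl2 level and 0.703% of the Gcg level, and those of Npc1-/- 8.16% and 0.563%. Other classes held Bcl2 as well, and the source of the Bcl2 counts in insulin cells was not tested.

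**Figure D1:**
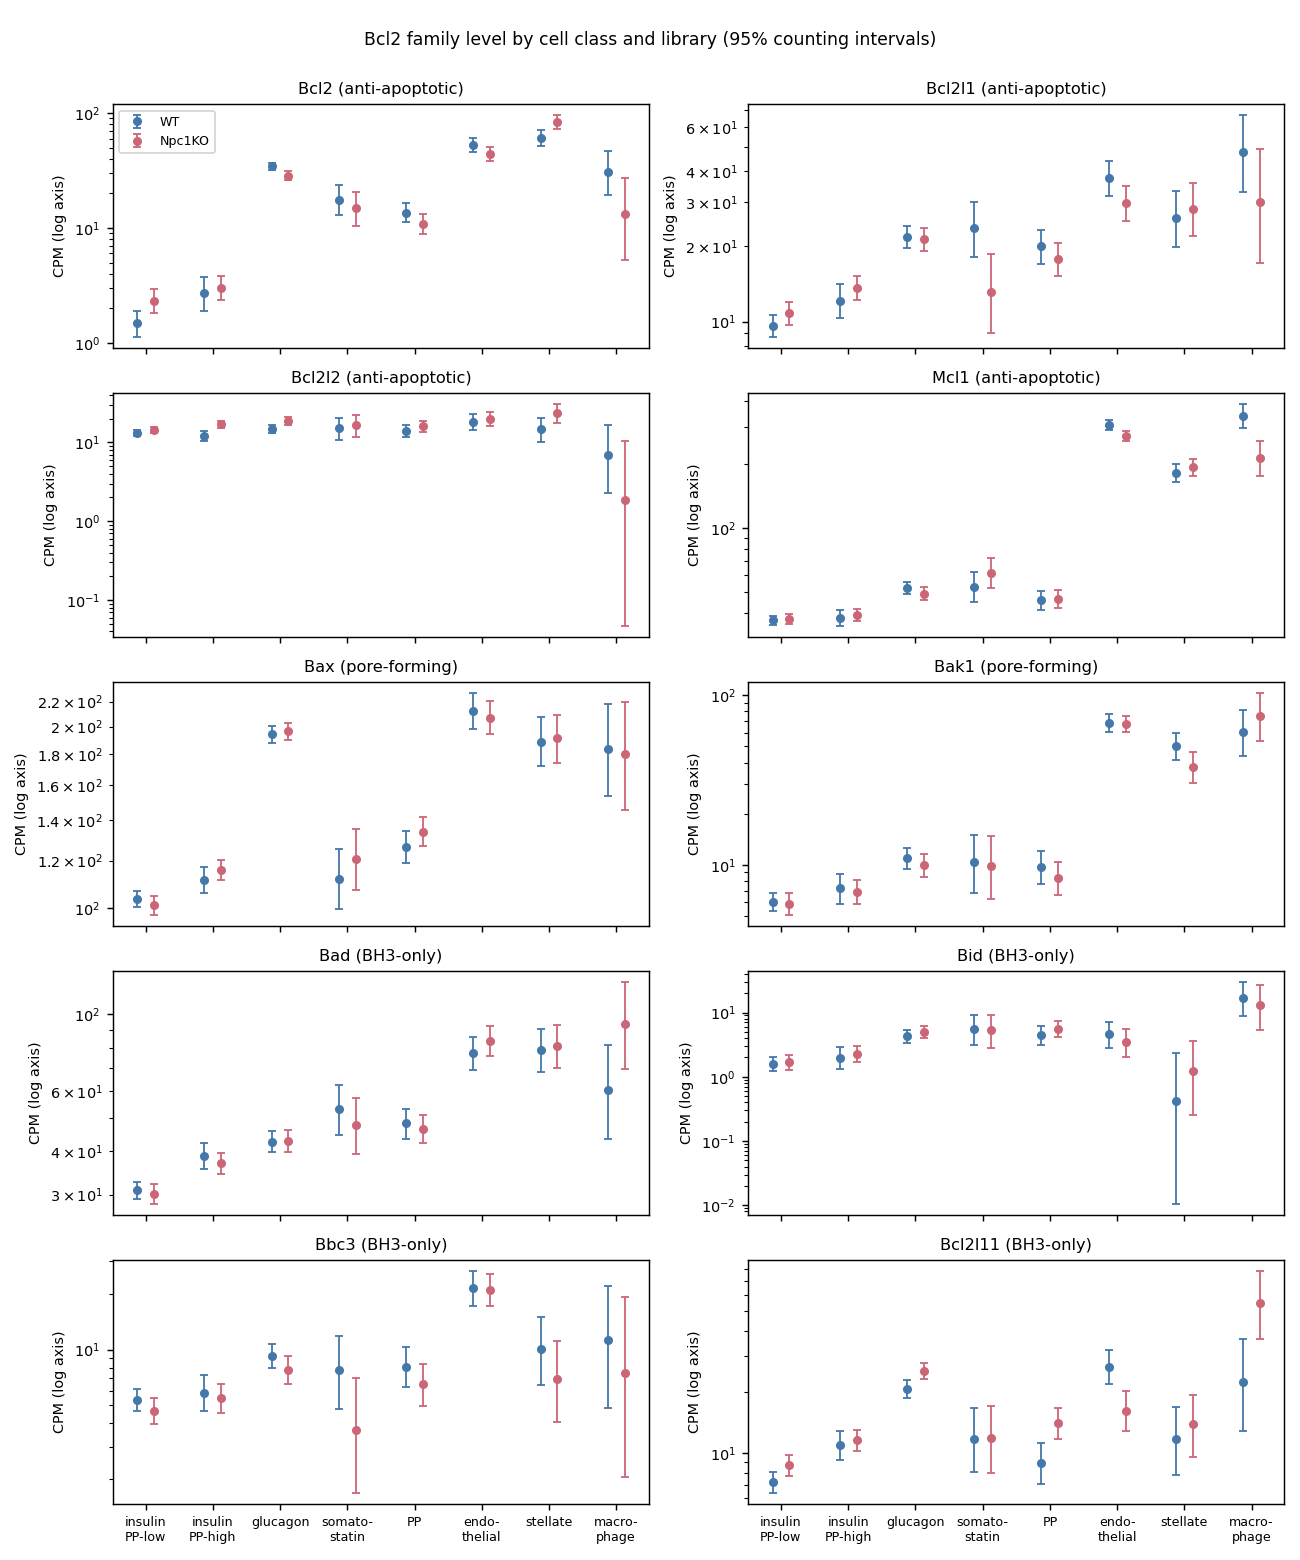
Level of the 10 members in 8 cell classes, as CPM on log axes whose range differs between panels, for WT (blue) and Npc1-/- (red, Npc1KO); points are UMIs summed over the cells of 1 library and bars are 95% exact Poisson intervals. Bcl2 lies between 1.48 and 3.03 CPM in the insulin classes and between 10.9 and 82.9 CPM in all others, and Mcl1 and Bak1 step up together from the hormone classes to endothelial, stellate and macrophage cells.

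Mcl1, a short-lived anti-apoptotic protein, and Bak1, the pore former that resides on mitochondria, kept closely together over classes. Mcl1 was at 37.1 CPM (2033 UMIs) in WT against 38.2 CPM (2068 UMIs) in Npc1-/- insulin cells, and at 52.5 and 49.2 CPM in glucagon cells. It reached 307 and 272 CPM in endothelial cells, 183 and 194 CPM in stellate cells, and 338 and 214 CPM in macrophages. Hormone cells formed the low group and the other classes the high group, without overlap of their intervals in either library.

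Bak1 made the same step, from 6.33 CPM in the insulin cells of both libraries (347 and 343 UMIs) and 10.9 and 9.90 CPM in glucagon cells to 68.7 and 67.5 CPM in endothelial cells. Stellate cells held 49.8 and 37.6 CPM of Bak1 and macrophages 60.2 and 75.0 CPM. Over the 16 sums of 8 classes in 2 libraries, Mcl1 and Bak1 had the highest Pearson correlation of the 45 pairs of members (r = 0.98 on log2(CPM + 1)). This is a description of 16 points that share libraries and the hormone share of their class, which moves all genes together.

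Because they kept together, the sequences around the starts of these genes are shown, from RefSeq (GRCm38.p6), from 250 bases before to 50 bases after the start. The Mcl1 sequence lies at chr3:95658471-95658770 on the plus strand and that of Bak1 at chr17:27028578-27028877 on the minus strand. Capitals mark matches on either strand to the motifs GGGCGG (the GC box) and CCGGAAG (bound by ETS factors). TATAAA and CCAAT were searched as well, and no motifs overlapped.
Mcl1: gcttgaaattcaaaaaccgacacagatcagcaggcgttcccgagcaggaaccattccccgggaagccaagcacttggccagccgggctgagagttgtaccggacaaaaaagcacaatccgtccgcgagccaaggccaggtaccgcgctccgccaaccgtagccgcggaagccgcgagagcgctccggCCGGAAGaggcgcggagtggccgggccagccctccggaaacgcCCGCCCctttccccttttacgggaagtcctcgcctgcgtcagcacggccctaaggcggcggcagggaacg
Bak1: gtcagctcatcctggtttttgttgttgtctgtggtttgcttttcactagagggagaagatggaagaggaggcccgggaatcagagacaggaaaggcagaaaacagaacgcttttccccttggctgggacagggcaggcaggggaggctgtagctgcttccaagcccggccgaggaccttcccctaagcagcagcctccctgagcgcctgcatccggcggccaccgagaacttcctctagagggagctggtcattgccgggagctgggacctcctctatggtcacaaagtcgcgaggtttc
The Mcl1 window held 1 GC box and 1 CCGGAAG, while the Bak1 window held 0 matches to any of the 4 motifs. Of 32851 such windows, 35.7% held GGGCGG, 8.86% CCGGAAG, 37.4% CCAAT and 13.6% TATAAA. G and C made up 65.7% of the Mcl1 and 58.3% of the Bak1 window. The starts are those of RefSeq, and the annotation behind the gene positions given further on places both elsewhere. That annotation starts Mcl1 at 95658788, past the end of its window. Bak1 starts there at 27029009 on the minus strand, so the whole Bak1 window lies inside the gene.

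Outside macrophages, the other anti-apoptotic members varied less. Bcl2l1 stood at 10.2 CPM in the insulin cells of WT and at 11.99 CPM in those of Npc1-/- (561 and 649 UMIs), at 21.8 and 21.3 CPM in glucagon cells, and at 37.5 and 29.7 CPM in endothelial cells. Bcl2l2 was at 13.0 and 15.5 CPM in insulin cells (710 and 841 UMIs), 14.8 and 18.8 CPM in glucagon cells and 18.3 and 20.02 CPM in endothelial cells. Without hormone genes in the total, Bcl2l2 was the one member of its group with its highest level in insulin cells, in the PP-low cells of WT (32.2 CPM) and the PP-high cells of Npc1-/- (36.2 CPM). In macrophages it rested on 5 and 1 UMIs.

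Bax, which moves from the cytosol to mitochondria when activated, gave more UMIs than any other member in all hormone classes. It was at 106 CPM (5789 UMIs) in WT against 107 CPM (5811 UMIs) in Npc1-/- insulin cells, and at 194 and 196 CPM in glucagon cells. Endothelial cells held 212 and 207 CPM and somatostatin cells 112 and 121 CPM. Without hormone genes in the total, glucagon cells led with 298 and 301 CPM, and the whole span over classes was 1.80-fold and 1.68-fold.

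Among the BH3-only genes, Bad, which is held inactive by growth factor signalling, was at 32.9 and 33.0 CPM in insulin cells (1801 and 1787 UMIs), 42.7 and 43.0 CPM in glucagon cells and 76.9 and 83.7 CPM in endothelial cells. Without hormone genes its span was the smallest of the 10 in both libraries, at 1.36-fold and 1.44-fold. Bcl2l11, known for driving death on growth factor withdrawal, was at 8.14 and 9.94 CPM in insulin cells (446 and 538 UMIs) against 20.8 and 25.3 CPM in glucagon cells. Bbc3, a target of p53, was at 5.48 and 5.02 CPM in insulin cells (300 and 272 UMIs) and highest in endothelial cells, at 21.4 and 21.0 CPM. Bid, which carries the death receptor signal to mitochondria once cleaved by caspase-8, was scarce in insulin cells, at 1.68 and 1.94 CPM (92 and 105 UMIs). It was highest in macrophages, at 16.8 CPM on 12 UMIs and 13.1 CPM on 7 UMIs, and stellate cells held 1 and 3 UMIs in all.

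As a share of the family's UMIs, the anti-apoptotic members made up 27.9% (27.1 to 28.7, Clopper-Pearson) in WT and 29.5% (28.7 to 30.3) in Npc1-/- insulin cells. The share was 30.4% and 29.1% in glucagon cells and 35.3% and 34.7% in somatostatin cells. In endothelial cells it was 50.3% (48.6 to 52.0) and 47.8% (46.2 to 49.4), and in stellate cells 45.5% and 49.8%. Macrophages were at 54.4% (50.2 to 58.6) in WT and 37.9% (32.9 to 43.1) in Npc1-/-, on 555 and 364 family UMIs. Bax alone gave 47.5% and 46.3% of the family's UMIs in insulin cells but 25.7% and 27.1% in endothelial cells, where Mcl1 gave 37.2% and 35.5%. The family as a whole held 527 and 525 CPM in insulin cells, 623 and 620 CPM in glucagon cells and 845 and 774 CPM in endothelial cells when hormone genes were left out of the total.

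**Figure D2:**
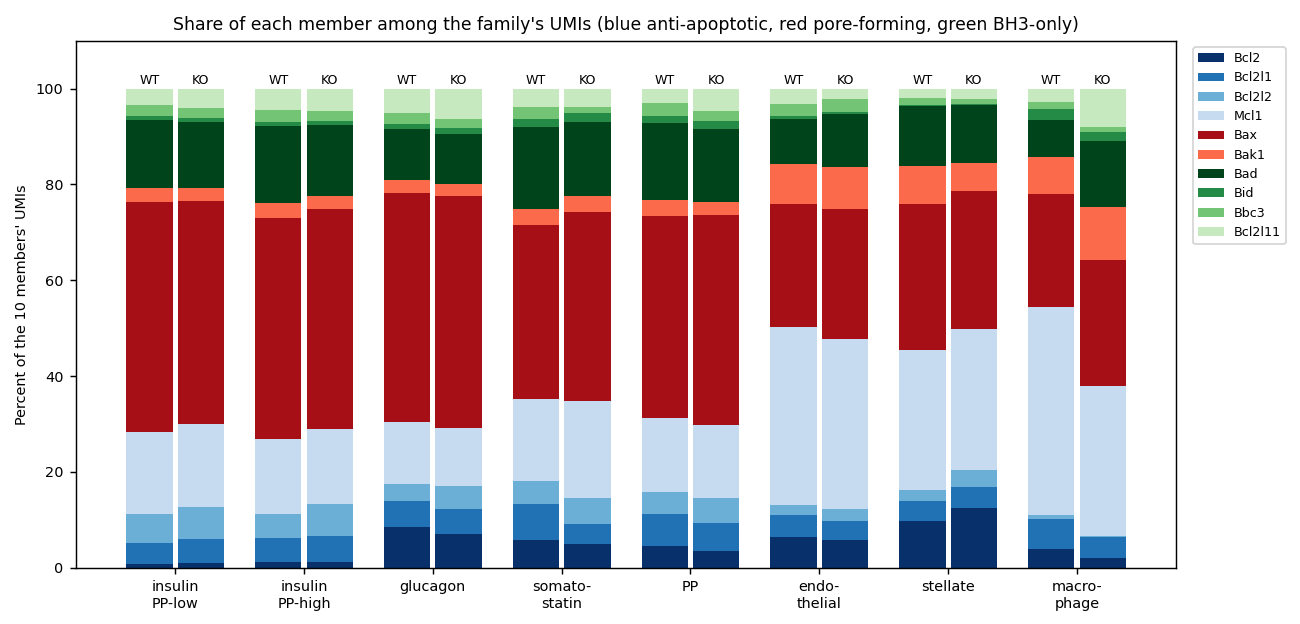
Share of each member among the UMIs of the 10 members (percent, stacked to 100) by class for WT and Npc1-/- (KO), with anti-apoptotic members in blue, pore-forming in red and BH3-only in green. The blue part covers 30.4% and 29.1% in glucagon cells and 50.3% and 47.8% in endothelial cells, there mostly through Mcl1, while Bcl2 (darkest blue) is a thin line in the insulin classes.

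Each class was next set against all insulin cells inside each library, and a member was counted when it was past the fold in the same direction in both. In glucagon cells 3 of 9 members that could be tested were higher (Bcl2, Bcl2l1 and Bcl2l11) and 0 lower, against 33.7% of all genes past the fold in either direction. Bcl2l11 was higher by 0.80 in WT and 0.90 in Npc1-/-. In PP cells 1 of 9 was higher, which was Bcl2 (background 28%). In somatostatin cells Bcl2 was higher and Bax and Bcl2l2 lower among 10 (background 26.7%), Bax by -0.65 and -0.46.

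Endothelial cells had 5 of 9 members past the fold, a share below the 64.7% of all genes. Bcl2, Mcl1 (2.00 and 1.89), Bak1 (2.39 and 2.48) and Bbc3 (0.92 and 1.13) were higher and Bcl2l2 was lower (-0.55 and -0.57). Without the cells rich in dissociation-response transcripts, Bbc3 was no longer past the fold in WT, at 0.54 (-0.08 to 1.06). Stellate cells had 3 of 9 past it (background 57.8%), which were Bcl2, Mcl1 and Bak1, all higher. Macrophages had 6 of 10 (background 46.7%), with Bcl2, Bcl2l1, Mcl1, Bak1 and Bid higher and Bcl2l2 lower. Bcl2 was the member that was higher than in insulin cells in all 6 classes and both libraries. Bcl2 and Bid were under 5 CPM in insulin cells, entered these counts only through the other class and could be called only as higher, so their part of the counts is a description. In Npc1-/- macrophages Bcl2l2 was at 1.87 CPM on 1 UMI. It entered there only through the insulin cells and could be called only as lower. Bcl2l1 in Npc1-/- macrophages rested on 16 UMIs, at 0.88 (0.02 to 1.55). Bcl2l2 was past the fold in 3 classes, lower in each.

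**Figure D3:**
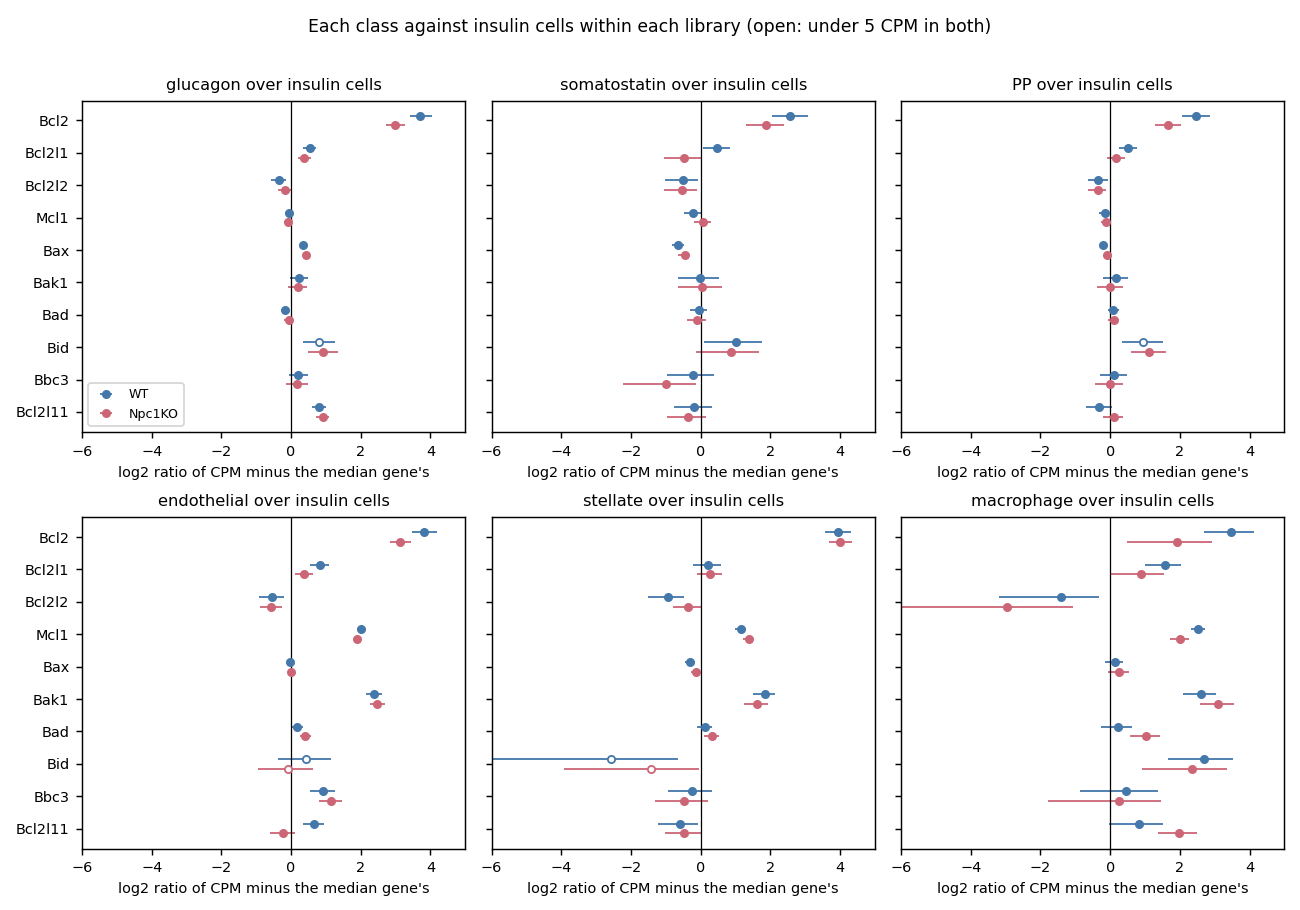
Difference of each member between 6 classes and insulin cells, as the log2 ratio of CPM minus that of the median gene, for WT (blue) and Npc1-/- (red, Npc1KO), with 95% counting intervals (2 bars that run past -6 are clipped); open points had under 5 CPM in both groups. Bcl2 lies right of 0 in every panel, between 1.66 and 4.01, while Bax lies between -0.65 and 0.42.

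Between the genotypes, 0 of the 8 members with at least 5 CPM were past the fold in insulin cells, where 9.13% of 8858 genes were, so the count is near the background and Bcl2 and Bid are not in it. Their median difference was -0.09. The median gene itself was 0.12 higher in Npc1-/- on the log2 scale, and the differences given are relative to it.

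For the anti-apoptotic members the difference was 0.11 for Bcl2l1 (-0.06 to 0.27), 0.14 for Bcl2l2 (-0.0041 to 0.29) and -0.08 for Mcl1 (-0.17 to 0.01). Bax differed by -0.10 (-0.15 to -0.04) and Bak1 by -0.12 (-0.34 to 0.10). Among BH3-only members, Bad differed by -0.11 (-0.21 to -0.02), Bbc3 by -0.24 (-0.49 to -0.0023) and Bcl2l11 by 0.17 (-0.02 to 0.35). The intervals of Bax, Bad and Bbc3 lay below the median gene, but as plain CPM ratios Bax was 0.02, Bad 0.01 and Bbc3 -0.12. Relative to the median gene, the intervals of Bax, Bad and Mcl1 reached no further than 0.21 in size. They cover counting error only and do not bound the spread between pools or preparations.

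Bcl2 and Bid were under 5 CPM in insulin cells of both libraries. Bcl2 had 98 UMIs (1.79 CPM) in WT and 142 UMIs (2.62 CPM) in Npc1-/-, a difference of 0.43 (0.05 to 0.82). This was past the fold once genes of at least 1 CPM were tested. It became 0.72 (0.25 to 1.21) without the likely doublets. As the mean of each cell's CPM it was -0.04, for which no interval was computed. Bid differed by 0.09 (-0.33 to 0.51). Transcripts of the response to dissociation were lower in Npc1-/- insulin cells, 10 of 11 past the fold with a median of -1.62, and without the cells rich in them Bcl2 differed by 0.43, with 0 members past the fold.

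In the other classes, glucagon cells had 0 of 10 members past the fold between genotypes (background 5.21%). Short of the fold, 3 glucagon cell intervals left out the median gene. They were those of Bcl2 at -0.29 (-0.47 to -0.12), Bcl2l2 at 0.32 (0.08 to 0.55) and Bcl2l11 at 0.26 (0.06 to 0.46). The share of all genes with such intervals is not given here, so this count has no background. PP-low insulin cells had 0 of 8 (background 11%). PP-high insulin cells had 1 of 8 (background 10.9%), Bcl2l2, at 12.1 CPM (165 UMIs) in WT against 17.1 CPM (389 UMIs) in Npc1-/-, higher by 0.40 (0.14 to 0.67). Somatostatin cells had 1 of 10 (background 7.59%), Bcl2l1, at 23.6 CPM on 64 UMIs and 13.2 CPM on 32 UMIs, lower by -0.84 (-1.51 to -0.22). When the leading hormone had to reach 20% of UMIs, that value was -1.94, the lowest of 11 alternatives, of which the highest was -0.76. Sst took 17.6% of the UMIs of this class in WT and 17.2% in Npc1-/-, so the 20% limit left fewer cells. No interval is given here for the value of -1.94.

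Bcl2l11 was past the fold in 3 classes and not in one direction. In PP cells (1 of 10 members, background 8.77%) it was at 8.96 CPM (73 UMIs) in WT against 14.0 CPM (131 UMIs) in Npc1-/-, higher by 0.58 (0.16 to 1.02), and by 0.41 (-0.03 to 0.87) without likely doublets. In endothelial cells (1 of 9, background 8.1%) it was at 26.5 CPM (109 UMIs) and 16.2 CPM (80 UMIs), lower by -0.71 (-1.15 to -0.29), and by -0.48 (-1.05 to 0.11) without the cells rich in dissociation-response transcripts. In macrophages it was at 22.4 CPM on 16 UMIs and 54.3 CPM on 29 UMIs, higher by 1.32 (0.41 to 2.32).

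Macrophages had 3 of 10 members past the fold (background 12.3%) on 58 and 32 cells. Besides Bcl2l11 these were Bad, at 60.2 and 93.7 CPM, higher by 0.69 (0.08 to 1.32), and Mcl1, at 338 CPM (241 UMIs) and 214 CPM (114 UMIs), lower by -0.60 (-0.93 to -0.27). Dissociation-response transcripts summed to 4483 CPM in WT and 2011 CPM in Npc1-/- macrophages, and without the cells rich in them Mcl1 differed by -0.35 (-0.71 to 0.01). Without likely doublets Bad differed by 0.33 (-0.31 to 0.9996). Stellate cells had 2 of 9 past it (background 10.5%), both higher: Bcl2, at 60.7 CPM (145 UMIs) and 82.9 CPM (203 UMIs), by 0.46 (0.15 to 0.78), and Bcl2l2, at 14.7 CPM (35 UMIs) and 23.3 CPM (57 UMIs), by 0.67 (0.05 to 1.33). With a stricter cell filter (over 2000 genes, mitochondrial UMIs under 5%) the stellate value of Bcl2l2 was 0.06 (-1.06 to 1.17).

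Over all kept cells 1 of 9 members was past the fold (background 5.42%), Bcl2, at 16.9 CPM (1592 UMIs) in WT against 13.8 CPM (1299 UMIs) in Npc1-/-, lower by -0.39 (-0.50 to -0.29). The unassigned cells held 116 CPM of it in WT, where B cell markers summed to 8619 CPM, and 29.7 CPM in Npc1-/-, where they summed to 71.1 CPM. Over the 8 classes alone, Bcl2 differed by -0.17 (-0.29 to -0.06).

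**Figure D4:**
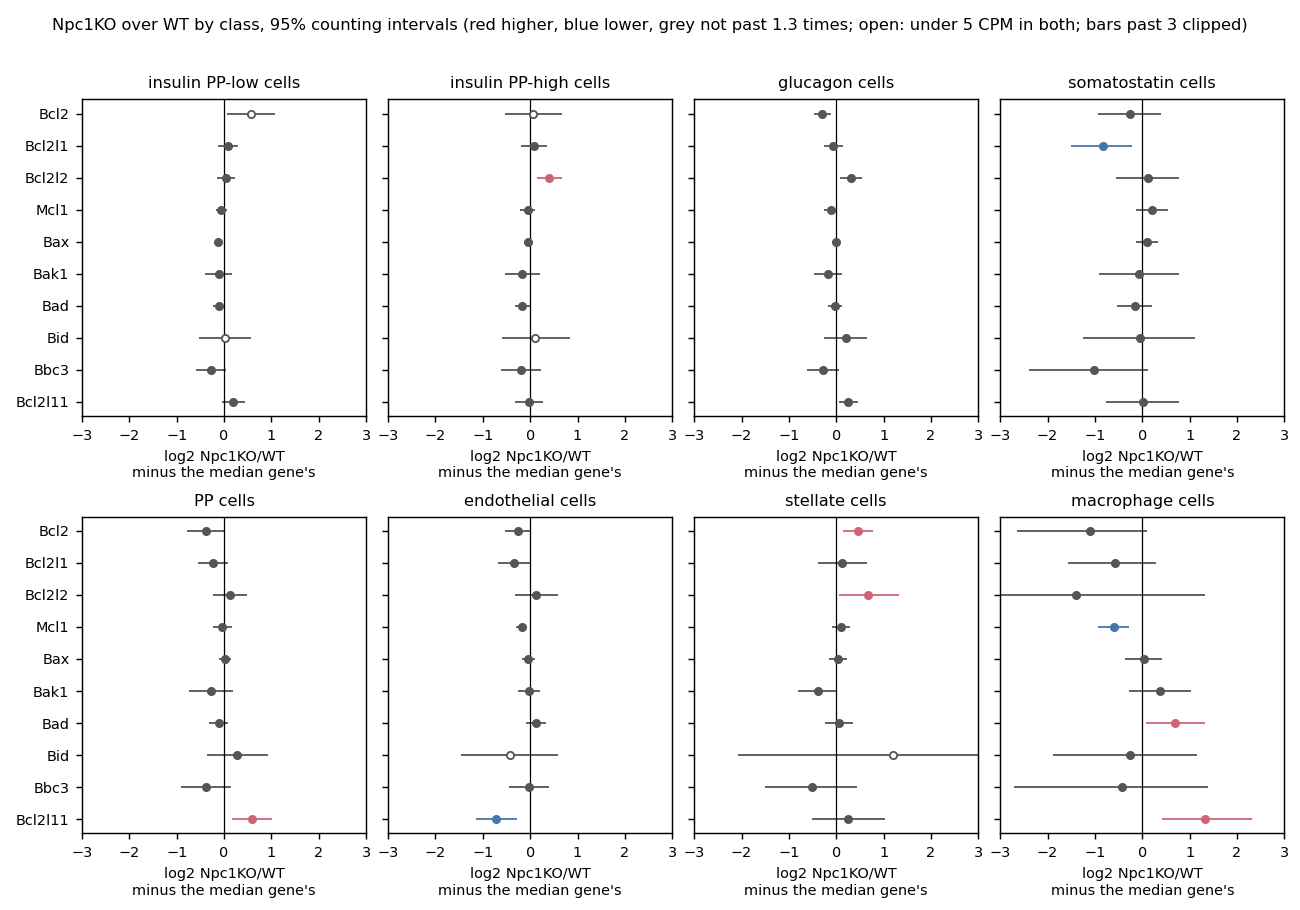
Difference between Npc1-/- and WT for each member in 8 classes, as the log2 ratio of CPM minus that of the median gene, with 95% counting intervals; red points are past 1.3 times and higher in Npc1-/-, blue lower, and open points had under 5 CPM in both. Of 80 pairs of member and class 9 are coloured, none in PP-low insulin or glucagon cells, and Bcl2l11 is red in PP cells and macrophages and blue in endothelial cells. Open points could not be coloured, and by class 5.21% to 12.3% of all genes tested were past the fold.

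Inside the insulin cells, PP-high cells were compared with PP-low cells in each library. Of the 8 members tested, 0 were past the fold in both libraries, where 6.25% of genes were. Bcl2l11 was the nearest, higher by 0.46 (0.16 to 0.74) in WT and by 0.23 (-0.02 to 0.48) in Npc1-/-. Bax differed by -0.05 and 0.02, with intervals from -0.14 to 0.09. Gcg was also higher in PP-high cells, at 6667 against 2154 CPM in WT, and its part in the Bcl2 counts of 2.71 against 1.48 CPM was not tested.

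Cycling insulin cells, which held a UMI of at least 3 of 6 proliferation genes, numbered 107 in WT and 86 in Npc1-/-. Of 9 members, 2 were higher than in the other insulin cells in both libraries and 0 lower, below the 28.9% of all genes past the fold. Bcl2 was under 5 CPM in the other insulin cells and passed the filter only through the cycling cells, so it could be called only as higher and its values are a description. It was at 5.32 CPM (19 UMIs) against 1.54 CPM (79 UMIs) in WT, a difference of 1.65 (0.82 to 2.36), and at 6.34 CPM (17 UMIs) against 2.43 CPM (125 UMIs) in Npc1-/-, a difference of 1.19 (0.33 to 1.89). Bcl2l11 was at 16.2 against 7.58 CPM in WT (58 and 388 UMIs) and 16.4 against 9.60 CPM in Npc1-/- (44 and 494 UMIs), differences of 0.95 and 0.56. Without likely doublets the Bcl2 difference was 2.61 in WT and 1.33 in Npc1-/-.

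In WT taken alone, 3 of 9 members were lower in cycling insulin cells, where 3875 of 9319 genes were past the fold in either direction. Mcl1 was lower by -0.43 (-0.72 to -0.16) and Bcl2l2 by -0.57 (-1.12 to -0.10). Bbc3 was at 1.68 CPM on 6 UMIs against 5.74 CPM on 294, lower by -1.82 (-3.39 to -0.79). It was under 5 CPM in the cycling cells and passed the filter only through the other insulin cells. At that level it could be called only as lower, so its values are a description. In Npc1-/-, where 0 members were lower, Bbc3 was at 3.36 CPM on 9 UMIs against 5.11 CPM on 263. Its interval of -0.76 (-1.98 to 0.11) took in the median gene. In glucagon cells, 104 cycling in WT and 84 in Npc1-/-, 0 of 9 members were past the fold in both libraries (background 25%). In Npc1-/- taken alone, Bbc3 was the 1 of 10 past it, lower by -1.11 (-2.44 to -0.17), where 3651 of 10281 genes were. There too it passed the filter only through the other cells, at 3.66 against 8.34 CPM, so this call is a description. Bcl2 in cycling glucagon cells was at 40.9 against 33.4 CPM in WT and 28.8 against 28.5 CPM in Npc1-/-. The difference between insulin and glucagon cells in the response of Bcl2 was not tested.

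**Figure D5:**
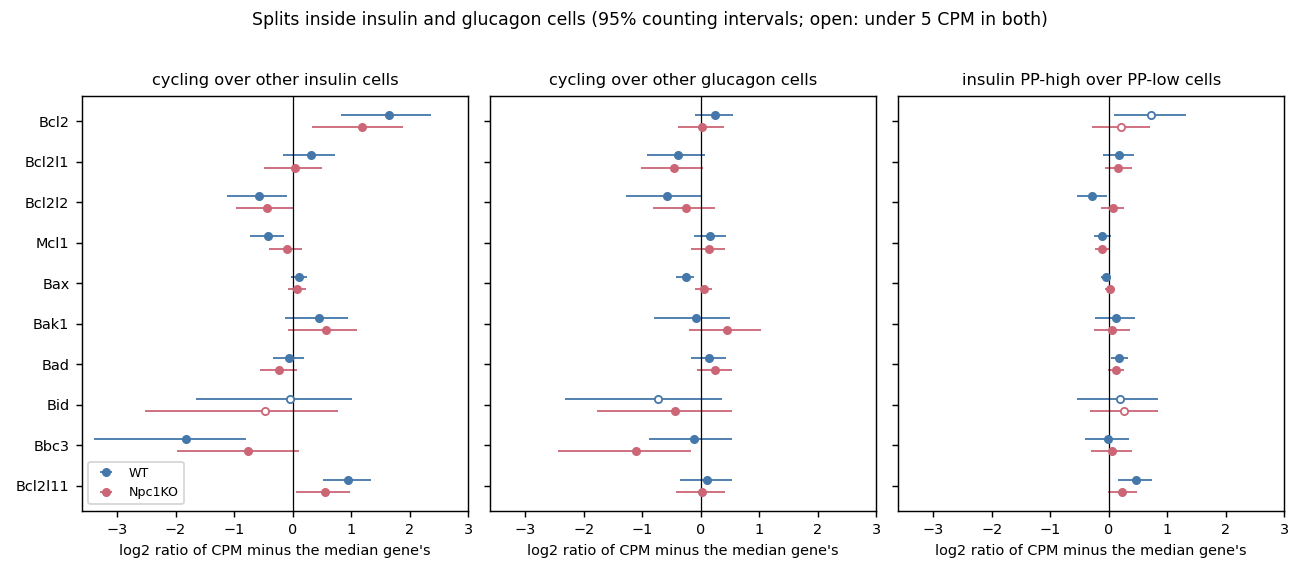
Difference of each member between cycling and other insulin cells, cycling and other glucagon cells, and PP-high and PP-low insulin cells, as the log2 ratio of CPM minus that of the median gene, for WT (blue) and Npc1-/- (red, Npc1KO) with 95% counting intervals; open points had under 5 CPM in both groups. Bcl2 and Bcl2l11 lie right of 0 in cycling insulin cells of both libraries, by 0.56 to 1.65, and the intervals of both take in 0 in cycling glucagon cells.

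Barcodes led by insulin or glucagon that were left out for a mitochondrial share of at least 10% were read as well, a comparison added after seeing the data. The 82 WT and 60 Npc1-/- insulin-led barcodes held less Bad than the kept cells, at 21.4 against 32.9 CPM (28 UMIs) in WT and 22.4 against 33.0 CPM (21 UMIs) in Npc1-/-, by -0.74 (-1.36 to -0.23) and -0.61 (-1.34 to -0.03). It was the 1 member of 8 past the fold in both libraries (background 6.79%). Among the 42 and 40 glucagon-led barcodes Bax was the 1 member of 9 (background 4.83%), at 142 against 194 CPM and 128 against 196 CPM, lower by -0.52 and -0.77. Bcl2 in the glucagon-led barcodes differed by 0.90 (0.29 to 1.41) on 29 UMIs in WT and by 0.15 (-0.87 to 0.91) on 12 UMIs in Npc1-/-, and the insulin-led barcodes held 7 UMIs and 1 UMI of it.

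Cells with over 0.5% of UMIs from dissociation-response transcripts were compared with the rest of their class, also after seeing the data. They numbered 172 glucagon, 62 PP, 221 endothelial and 193 stellate cells in WT, and 13, 11, 145 and 150 in Npc1-/-. The Npc1-/- glucagon and PP values rest on few cells, so a lack of calls in both libraries says little there. In glucagon, PP, endothelial and stellate cells 0 members were past the fold in both libraries, where 0.921%, 0.578%, 0.718% and 1.41% of genes were. Within 1 library far more genes were past it, which is the background for the calls below. In WT these were 750 of 10015 genes in glucagon, 690 of 10163 in PP, 685 of 10204 in endothelial and 968 of 10914 in stellate cells. In Npc1-/- stellate cells they were 1041 of 10664. Past the fold in WT alone, Bbc3 was higher in such PP cells (18.6 against 6.41 CPM, by 1.42, 21 and 45 UMIs) and in such endothelial cells (26.0 against 15.99 CPM, by 0.69, 58 and 30 UMIs), and Mcl1 was higher in such glucagon cells (69.1 against 49.4 CPM, by 0.38). In Npc1-/- Bbc3 differed by 0.75 (-2.64 to 2.36) on 2 UMIs in PP cells and by 0.47 (-0.14 to 1.05) in endothelial cells. Mcl1 in Npc1-/- glucagon cells differed by -0.06 (-0.99 to 0.64) on 14 UMIs. Lower in WT alone were Bad in glucagon cells (by -0.45) and Bak1 in PP cells (by -1.26, on 5 and 74 UMIs) and in stellate cells (by -0.70). In PP cells Bak1 was at 4.42 against 10.5 CPM and passed the 5 CPM filter only through the other cells. In Npc1-/- alone the stellate cells had Bcl2l2 lower (by -1.04), Bad lower (by -0.52) and Bcl2l11 higher (by 1.08).

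Other genes of the pathway were read from 6 lists. Of the 15 other members of the Bcl2 family, 5 could be tested in insulin cells between genotypes, and 0 were past the fold. Bnip3l and Bnip3, which mark mitochondria for mitophagy, were at 61.6 and 62.0 CPM and at 26.3 and 30.0 CPM. Bik, a BH3-only gene of the endoplasmic reticulum, held 15.002 CPM in WT against 15.7 CPM in Npc1-/-. Bcl2a1a, Bcl2a1b and Bcl2a1d, anti-apoptotic copies so alike that their counts cannot be told apart with certainty, held 0 to 2 UMIs each in insulin cells, and Bcl2a1b reached 558 CPM in the macrophages of Npc1-/-. Bok, a pore-forming relative of Bax and Bak1, was at 8.61 and 7.42 CPM in insulin cells and at 136 and 120 CPM in endothelial cells. Hrk and Pmaip1 (Noxa), both BH3-only, had 0 to 2 UMIs in the insulin cells of either library.

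Of the 5 other family genes tested, 2 were past the fold between PP-high and PP-low insulin cells in both libraries (background 6.25%), Bik higher and Bok lower. This list is 1 of 6 read for the split. The others had 1 of 13 apoptosome and caspase genes, 0 of 3 outer membrane channels and 0 of 6 death receptor genes past it. Among the regulators 1 of 24 was, and in the dissociation list 2 of 11. Bik was at 29.3 CPM (400 UMIs) in PP-high against 10.3 CPM (422 UMIs) in PP-low cells of WT, and at 23.1 CPM (527 UMIs) against 10.4 CPM (325 UMIs) in Npc1-/-. The differences were 1.36 (1.16 to 1.56) and 0.98 (0.78 to 1.18), and 1.52 and 1.0104 without likely doublets. PP cells held 57.1 and 40.8 CPM of Bik and somatostatin cells 47.9 and 34.1 CPM. The somatostatin transcript Sst moved with the split, at 0.639% of UMIs in PP-high against 0.00492% in PP-low cells of WT and 0.395% against 0.00617% in Npc1-/-, and its part in the Bik values was not tested. Bok was at 6.37 against 9.36 CPM in WT and 6.36 against 8.20 CPM in Npc1-/-, by -0.71 and -0.54.

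Of the apoptosome and caspase list, 13 of 17 genes could be tested between genotypes in insulin cells and 1 was past the fold (7.69%, against 9.13% of all genes), Birc5 (survivin, also a mitotic gene), lower by -0.41 (-0.55 to -0.27). Cycs, which encodes cytochrome c, was at 76.5 CPM in WT against 70.7 CPM in Npc1-/-, a difference of -0.23 (-0.30 to -0.17). The 3 outer membrane channels Vdac1, Vdac2 and Vdac3 had 0 past it, at 76.5, 129 and 75.4 CPM in WT and 78.0, 122 and 70.3 CPM in Npc1-/-. Of the death receptor branch 1 of 6 was past it (against the same 9.13%), Tnfrsf1a, a receptor for tumour necrosis factor, lower by -0.40 (-0.59 to -0.20). Cflar, the inhibitor of caspase-8 activation, was at 32.7 and 36.1 CPM.

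Of 25 genes known to regulate the members, 24 could be tested and 3 (12.5%) were past the fold, all lower, against 9.13% of all genes. Ddit3 (CHOP), a stress factor known to act on Bcl2 and Bcl2l11, was at 20.4 CPM (1116 UMIs) in WT against 16.03 CPM (868 UMIs) in Npc1-/-, lower by -0.46 (-0.59 to -0.34). Ywhah, a 14-3-3 protein of the group that binds phosphorylated Bad, was at 91.1 and 75.0 CPM, lower by -0.40. Jun was at 180 and 61.8 CPM, lower by -1.67, and is also counted in the dissociation list. Over the 6 lists 14 of 61 genes tested (79 in all) were past the fold, all lower and 10 of them in the dissociation list, while over all genes 430 of 8858 were past it as higher and 379 as lower.

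The genes whose levels over the 16 sums were most like a member's are named as a description of these sums. For Bcl2 they were Fam172a, Clk1 and U2af1 (r of 0.97, 0.97 and 0.96), and for Mcl1 Sipa1, Rac1 and Map2k3 (0.99 each). For Bak1 they were Rac1, Sipa1 and Isg15 (0.99 each), for Bax Mgst1, Rxra and Selenoh (0.96, 0.94 and 0.94), and for Bad Ndufs8, Nit2 and Psmb3 (0.98 each). For Bcl2l1 they were Phb2, Dnmt1 and Nufip1, for Bcl2l2 Pcmtd2 and Gadd45a, for Bbc3 Gm4707, Klf4 and Ints9, and for Bcl2l11 Gpr137b, Bola2 and Cpsf1. Bid stayed under 20 CPM in every sum and was left out.

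By the GENCODE M21 annotation of GRCm38, Bcl2 spans chr1:106538178-106714274 on the minus strand, Mcl1 chr3:95658788-95663176 on the plus strand, Bax chr7:45461697-45466898 on the minus strand and Bak1 chr17:27019810-27029009 on the minus strand. Bax overlaps Gm45808 and Bcl2l2 overlaps Gm20521 on the same strand, and both partners had 0 UMIs in kept cells. Reads from the shared exons may have been dropped, so the counts of Bax and Bcl2l2 are uncertain by that part.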

How the data were processed

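Droplet-based single cell RNA-seq gave 1 WT and 1 Npc1-/- islet library. The deposited matrices hold whole UMI counts, not normalized, which the authors made with Cell Ranger 3.1.0 on mm10, as named in the submitters' processing notes, which also name Seurat 4.0.3. The labels and the paper differ on the version of the 10x reagents. Barcodes were kept here with more than 1000 genes, fewer than 50000 UMIs, mitochondrial UMIs under 10% and haemoglobin UMIs of at most 0.1%. Doublets were not removed in the main values. Classes needed at least 10% of UMIs from the leading hormone, else at least 3 of 8 markers. UMIs were summed by library and class. Ratios had 0.5 counts added and conditional binomial intervals at 95%, and a gene was tested against the fold of 1.3 where either group reached 5 CPM. All intervals cover counting error only.

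No test between genotypes was made, because each has 1 library. The members and gene lists were chosen with earlier results of these data known. The genes named were the 10 members, the list genes past the fold in insulin cells and the 3 most abundant of each list, the 3 genes most like each member with at least 20 CPM in any sum, and Npc1. A gene that this rule names is not reported here. Bik, Bok, Hrk, Pmaip1 and the Bcl2a1 genes were named after their values were seen. The most abundant genes of the dissociation list were Hsp90aa1 (301 and 276 CPM in WT and Npc1-/- insulin cells), Jund (250 and 172 CPM) and Fos (190 and 54.6 CPM), and of the regulators Ywhaq (308 and 277 CPM) and Ywhae (218 and 214 CPM). Others were Birc6 (55.1 and 67.1 CPM), Endog (29.3 and 28.2 CPM), Ripk1 (11.0 and 12.0 CPM) and Tradd (10.1 and 10.7 CPM). The tools were scipy 1.17.1, pandas 2.3.3, matplotlib 3.10.9, numpy 2.4.6 and Scrublet (scanpy 1.11.5) under Python 3.11.15, and R 4.3.3 (edgeR 4.0.16, for the TMM factor alone). The ratio step was tested on simulated counts.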

Additional observations from a re-analysis of the deposited data

Results flagged for a closer look

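Bcl2l11 differed between the libraries in opposite directions in different classes, and the difference between the classes was not tested. Relative to the median gene it was higher in Npc1-/- PP cells by 0.58 on the log2 scale (0.16 to 1.02), higher in macrophages by 1.32 (0.41 to 2.32), and lower in endothelial cells by -0.71 (-1.15 to -0.29). Without likely doublets the PP value was 0.41 (-0.03 to 0.87), and without the cells rich in dissociation-response transcripts the endothelial value was -0.48 (-1.05 to 0.11), neither of them past the fold. The macrophage value rests on 16 and 29 UMIs. Of all genes, 8.77% were past the fold in PP cells, 12.3% in macrophages and 8.1% in endothelial cells. How many genes were past it in opposite directions in different classes is not given here, so the pattern of Bcl2l11 has no background.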

How the results depend on the processing

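No paired analysis was possible because the labels give no replicate numbers and each genotype has 1 library, which also leaves no replicate to leave out. The number of members past the fold between genotypes in insulin cells stayed at 0 under 10 of 12 alternatives and was 1 with CPM without hormone genes and 1 with a minimum of 1 CPM, in both cases Bcl2. The pairs of member and class past the fold numbered 9 and ranged from 6 (likely doublets removed) to 11 (leading hormone of at least 20%). In the main values, 5.21% to 12.3% of all genes tested were past it, depending on the class. The count of list genes past the fold between genotypes in insulin cells was 14 and ranged from 11 to 17, with 0 to 2 for the apoptosome list, 0 to 1 for the death receptor branch and 2 to 5 for the regulators. The share of all genes past the fold is not given under the alternatives, so these counts have no background there. The ratio of CPM without hormone genes was not set against the median gene. The count of genes most like a member fell from 27 by Pearson r to 3 shared ones by Spearman rho. The 79 other counts and shares that answer a comparison stayed within 1.5 times or within their interval. Of the values of single members and list counts, 520 of 558 did so. No called value changed its sign. An alternative chosen after seeing the data left out cycling insulin cells, where Bcl2 differed by 0.53 and 0 members were past the fold. Depth limits Bid, Bcl2 in insulin cells and every macrophage value, and in simulated macrophage counts at this depth 59.5% of 200 genes changed 2-fold among 9826 tested were recovered. The simulation held counting error only, and its changed genes were drawn from those of at least 10 CPM. Recovery of scarcer members in real counts may therefore be lower.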
